A study of Caenorhabditis elegans with 18 samples.

Results

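The 7 fatty acid desaturase genes of Caenorhabditis elegans, fat-1 to fat-7, were followed in hira-1(-) and N2 animals at the last larval stage (L4) and in adults. They were taken by name from the 45461 gene rows of the deposited tables, and all 7 passed the expression filter that left 16770 genes for testing. Of the 7 transcripts, 6 were lower in hira-1(-) adults than in N2 adults, beside 26.5% of all genes tested called lower and 28.6% called higher. Of these 6, fat-4 and fat-5 were not called lower when libraries were scaled by their totals alone. The largest difference was that of fat-7, which was 4.58-fold lower, followed by fat-6 and fat-1. At L4 fat-1, fat-6 and fat-7 were lower in hira-1(-) by smaller margins than in adults, and fat-5 was 2.46-fold higher.

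Desaturases place double bonds into fatty acid chains bound to coenzyme A or to phospholipids, using electrons passed on by cytochrome b5. In C. elegans fat-5, fat-6 and fat-7 encode the enzymes that put the first double bond into saturated chains, fat-5 acting on palmitoyl-CoA and fat-6 and fat-7 on stearoyl-CoA. The product of fat-2 adds the second double bond to make linoleic acid, fat-1 encodes the omega-type desaturase absent from mammals, and fat-3 and fat-4 encode the front-end desaturases that lead to arachidonic and eicosapentaenoic acid. The intestine is the main site of fat storage and of much of this synthesis, and fat-7 transcription in this worm is known to follow diet, temperature and nuclear hormone receptors.

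RNA was sequenced after poly(A) selection from N2, the wild-type strain, and from strain MT23643, which carries hira-1(gk835598) and is written hira-1(-). HIRA is a chaperone that places the histone variant H3.3 into nucleosomes outside replication. The libraries analysed were 2 each of hira-1(-) adults, N2 adults, hira-1(-) L4 larvae and N2 L4 larvae, with 26010300 to 31174600 estimated counts each, and L1 larvae and replicates numbered 3 were not analysed here. The labels do not tell whether replicates were grown as separate cultures, so the p-values cover just the spread among these libraries, part of which may be technical. The hira-1 transcript was 40.3 ± 0.441 CPM in hira-1(-) adults and 109 ± 0.810 CPM in N2 adults, and 24.5 ± 1.12 CPM in hira-1(-) L4 larvae and 35.1 ± 3.20 CPM in N2 L4 larvae (SD, n = 2 each). It was lower in hira-1(-) at both stages (log2 fold change -1.43 in adults and -0.52 at L4). CPM is the estimated count per 1000000 counts of the library size after scaling by trimmed means, and FPKM, used to compare genes with each other, is the deposited value per length and library. Any further difference between strain MT23643 and N2 cannot be told apart from the allele.

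The deposited rows of fat-1 (Y67H2A.8), fat-2 (W02A2.1), fat-3 (W08D2.4), fat-4 (T13F2.1) and fat-6 (VZK822L.1) are of chromosome IV genes, and those of fat-5 (W06D12.3) and fat-7 (F10D2.9) of chromosome V genes. In the WBcel235 annotation no protein-coding gene lies between fat-1 and fat-2, or between fat-3 and fat-4.

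The 7 transcripts differed widely in level on the FPKM scale. Highest was fat-2, whose enzyme makes linoleic acid. It stood at 512 and 482 FPKM in hira-1(-) adults, 573 and 551 FPKM in N2 adults, 397 and 390 FPKM in hira-1(-) L4 larvae and 346 and 403 FPKM in N2 L4 larvae. The stearoyl-CoA desaturase fat-6 stood at 210.1 and 208 FPKM in hira-1(-) adults, 345 and 320.3 FPKM in N2 adults, 269 and 252 FPKM in hira-1(-) L4 larvae and 284 and 335 FPKM in N2 L4 larvae. Its paralog fat-7 was far scarcer, with a mean of 10.8 ± 0.0990 FPKM in hira-1(-) adults, 42.6 ± 3.77 FPKM in N2 adults, 9.23 ± 2.74 FPKM in hira-1(-) L4 larvae and 12.9 ± 1.68 FPKM in N2 L4 larvae (SD, n = 2 each). The palmitoyl-CoA desaturase fat-5 was the least abundant of the 7 in all 8 libraries, between 1.24 FPKM in N2 L4 replicate 2 and 4.16 FPKM in hira-1(-) L4 replicate 1. The omega-type desaturase fat-1 lay between 194 and 324 FPKM, fat-4 between 154 and 212 FPKM, and fat-3 between 66.4 and 95.1 FPKM.

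**Figure D1:**
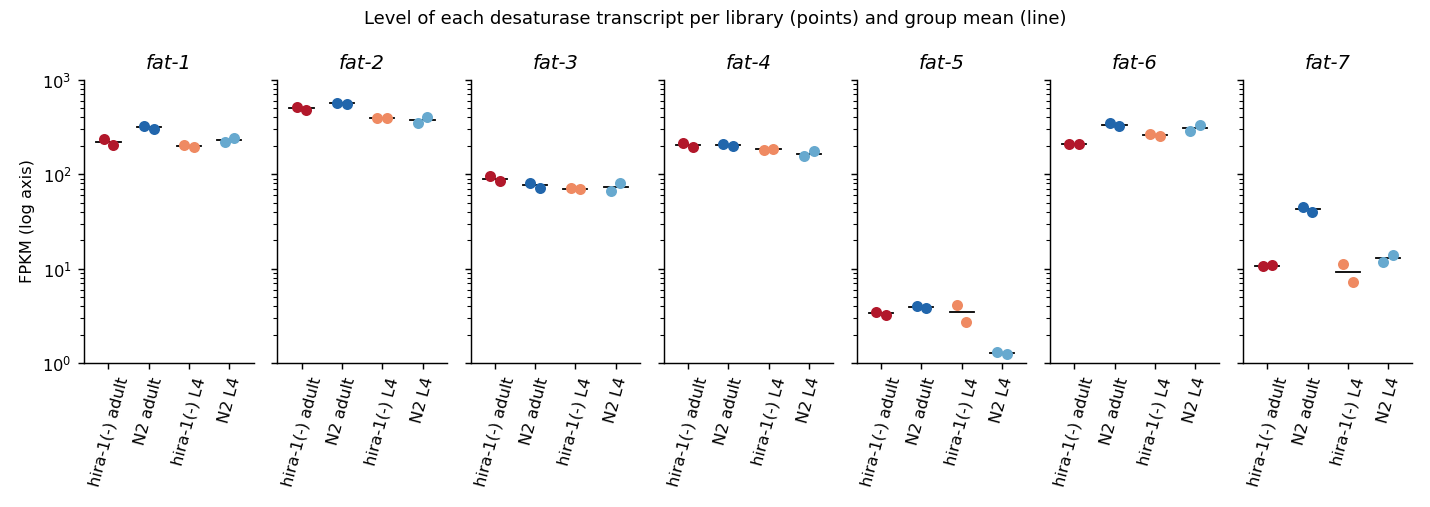
Deposited FPKM of each desaturase transcript on a logarithmic axis, 1 point per library and a line at the mean of the 2 libraries of each group. In N2 adults fat-7 stood at 45.2 and 39.9 FPKM, above every other group, and in N2 L4 larvae fat-5 stood at 1.30 and 1.24 FPKM, below every other group.

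Ordered by mean CPM, N2 adults were the highest group for 6 of the 7 genes, and fat-3 was the exception. For fat-7 the order was N2 adult, N2 L4, hira-1(-) adult and hira-1(-) L4, and the libraries of each neighbouring pair did not overlap. The last pair was barely apart, at 11.54 CPM in hira-1(-) adult replicate 1 and 11.47 CPM in hira-1(-) L4 replicate 1. For fat-6 the order was N2 adult, N2 L4, hira-1(-) L4 and hira-1(-) adult, again with no overlap between neighbours, so that hira-1(-) adults were the lowest group. On the FPKM scale the 2 lowest groups of fat-7 overlapped, and so did the 2 highest of fat-6. The highest group mean was 5.67 times the lowest for fat-7, 3.49 times for fat-5, 1.95 times for fat-1, 1.83 times for fat-6, 1.76 times for fat-2, 1.39 times for fat-4 and 1.36 times for fat-3, all on the CPM scale.

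In adults, the question was which desaturase transcripts differ between the genotypes. None of the 7 was higher in hira-1(-) adults and 6 were lower, beside 28.6% of all tested genes called higher and 26.5% called lower in the same comparison. The median log2 fold change of the 7 was -0.44, beside 0.03 for all genes tested. With library totals in place of trimmed-mean scaling, which moved the median of all genes to 0.24, 4 of the 7 were called lower and fat-4 and fat-5 were not. In bulk RNA, fewer cells of a type and less RNA per cell cannot be told apart.

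Among the desaturases of saturated chains, fat-7 had 11.5 and 11.9 CPM in hira-1(-) adults, against 57.3 and 50.1 CPM in N2 adults. Both hira-1(-) libraries were far below both N2 libraries (log2 fold change -2.19, SE 0.17, edgeR adjusted p = 8.83e-06), and 1.37% of all genes tested had a more negative value. The more abundant stearoyl-CoA desaturase fat-6 had 222 and 224 CPM in hira-1(-) adults, against 426 and 394 CPM in N2 adults. The 2 hira-1(-) values lay close together and well below N2 (log2 fold change -0.88, SE 0.07, edgeR adjusted p = 7.04e-07). Because fat-6 and fat-7 are close paralogs whose reads the counting program may divide between them, their counts were also summed. The sum was lower too (log2 fold change -0.98, edgeR adjusted p = 4.42e-07). As fat-6 held most of the sum, the sum cannot tell what part divided reads had in the fat-7 value, which was not tested. The palmitoyl-CoA desaturase fat-5 had 8.05 and 7.58 CPM in hira-1(-) adults and 10.9 and 10.3 CPM in N2 adults. These libraries did not overlap either, but the difference was small (log2 fold change -0.44, 95% interval -0.80 to -0.08, edgeR adjusted p = 0.0385). The fat-5 call was lost without either hira-1(-) or either N2 adult library (adjusted p = 0.0902 to 0.156) and with library totals (log2 fold change -0.23, adjusted p = 0.240).

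Among the polyunsaturated fatty acid desaturases, fat-1 had 297 and 271 CPM in hira-1(-) adults, against 486 and 449 CPM in N2 adults. It was lower by a margin several times its error (log2 fold change -0.72, SE 0.07, edgeR adjusted p = 1.38e-06). Its chromosomal neighbour fat-2 had 597 and 572 CPM in hira-1(-) adults and 779 and 744 CPM in N2 adults. It too was lower, without overlap (log2 fold change -0.38, SE 0.06, edgeR adjusted p = 2.92e-04). With library totals the fat-2 value was -0.17 (adjusted p = 0.0430), and with limma on FPKM it was -0.18 and not called (adjusted p = 0.0704 and 0.0714). For fat-4 the values were 300.4 and 282 CPM in hira-1(-) adults and 350.0 and 329 CPM in N2 adults (log2 fold change -0.22, edgeR adjusted p = 0.0107). The libraries did not overlap, but without hira-1(-) adult replicate 2 the adjusted p was 0.0995, and with library totals the log2 fold change was -0.01 (adjusted p = 0.873). For fat-3, whose product acts before that of fat-4, the values were 138 and 125 CPM in hira-1(-) adults and 139 and 122 CPM in N2 adults. The groups overlapped, and the difference was 0.01 on the log2 scale with a 95% interval of -0.20 to 0.23 (edgeR adjusted p = 0.913). On the FPKM scale fat-3 was 95.1 and 84.7 in hira-1(-) adults and 81.7 and 72.3 in N2 adults, without overlap.

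**Figure D2:**
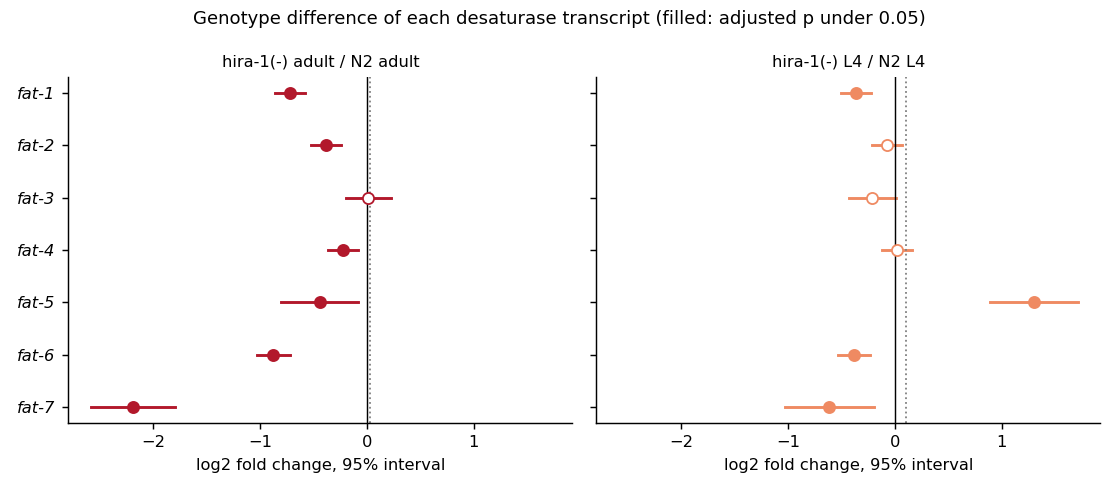
Log2 fold change of hira-1(-) over N2 for each desaturase transcript in adults (left) and at L4 (right), with 95% intervals, filled where the edgeR adjusted p is under 0.05 and with the median of all genes as a dotted line. In adults fat-7 stands lowest at -2.19 and fat-3 at 0.01, and at L4 fat-5 stands highest at 1.30; with library totals the adult calls of fat-4 and fat-5 were lost.

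The 11 intestine markers summed to 4026 to 4254 CPM in hira-1(-) adults and 3268 to 3509 CPM in N2 adults, none of them was at 0, and 5 were higher and 3 lower in hira-1(-). The 8 hypodermis markers summed to 231.5 to 247.2 CPM in hira-1(-) adults and 112.1 to 113.3 CPM in N2 adults, with 6 higher and none lower. The 6 sperm markers summed to 34.6 to 38.6 CPM in hira-1(-) adults and 83.4 to 93.8 CPM in N2 adults, with 3 lower. The 7 oocyte markers summed to 8269 to 8806 CPM in hira-1(-) adults and 7642 to 8078 CPM in N2 adults, with 1 higher. Of the other lists, germ line had 2 higher and 1 lower of 6, body wall muscle 2 higher and 3 lower of 6, and neurons 2 higher and 1 lower of 6. Beside these counts, 28.6% of all genes tested were higher and 26.5% lower in hira-1(-) adults. The part of the marker differences in the desaturase values was not tested.

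At L4, the same comparison gave 1 desaturase transcript higher and 3 lower in hira-1(-) larvae, beside 35.5% of all genes tested called higher and 22.6% called lower. The member median was -0.21 on the log2 scale, beside 0.10 for all genes tested. The higher one was fat-5, with 9.03 and 5.95 CPM in hira-1(-) L4 larvae, against 3.13 and 2.94 CPM in N2 L4 larvae. Both hira-1(-) larval libraries were above both N2 libraries, although they differed from each other by more than the fat-5 replicates of any other group (log2 fold change 1.30, 95% interval 0.89 to 1.71, edgeR adjusted p = 6.60e-05). This rested on 267 and 180.0 estimated counts in hira-1(-) L4 larvae and 87 and 80 in N2 L4 larvae. It kept its call under every alternative run, between 0.95 and 1.57 on the log2 scale.

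In the WBcel235 annotation fat-5 is the only member crossed by other genes, a non-coding RNA gene and the potassium channel gene twk-42, both on the opposite strand. The sources used here do not say if reads were counted by strand. The non-coding gene was listed at 0 counts in all 8 libraries. The twk-42 row held 186 and 198 estimated counts in hira-1(-) L4 larvae and 273 and 252 in N2 L4 larvae, the opposite order to fat-5. In adults it held 79 and 49 estimated counts in hira-1(-) and 112 and 131 in N2, the same order as fat-5. What part its reads have in the fat-5 values was not tested.

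The 3 desaturases lower at L4 were fat-1, fat-6 and fat-7. The omega-type desaturase fat-1 had 245 and 235 CPM in hira-1(-) L4 larvae and 293 and 323 CPM in N2 L4 larvae (log2 fold change -0.36, SE 0.07, edgeR adjusted p = 3.99e-04). For fat-6 the values were 270.3 and 253 CPM in hira-1(-) L4 larvae and 314 and 367 CPM in N2 L4 larvae (log2 fold change -0.38, SE 0.07, edgeR adjusted p = 5.66e-04). Neither gene's groups overlapped. For fat-7 they were 11.5 and 7.46 CPM in hira-1(-) L4 larvae and 13.2 and 15.7 CPM in N2 L4 larvae, apart but close (log2 fold change -0.62, SE 0.18, edgeR adjusted p = 0.0182). Without hira-1(-) L4 replicate 2 the fat-7 value was -0.34 (adjusted p = 0.0658), and leaving out N2 L4 replicate 2 it was -0.59 (adjusted p = 0.0636). Leaving out hira-1(-) L4 replicate 1 instead gave -0.96 (adjusted p = 2.93e-04).

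The remaining members did not pass at L4. For fat-2 the values were 435 and 428 CPM in hira-1(-) L4 larvae and 423 and 485 CPM in N2 L4 larvae, overlapping (log2 fold change -0.07, 95% interval -0.21 to 0.07, edgeR adjusted p = 0.356). For fat-4 they were 244 and 251 CPM in hira-1(-) L4 larvae and 229 and 261 CPM in N2 L4 larvae, overlapping too (log2 fold change 0.02, 95% interval -0.12 to 0.16, edgeR adjusted p = 0.857). The fat-3 values of 97.2 and 95.4 CPM in hira-1(-) L4 larvae and 100.9 and 122 CPM in N2 L4 larvae did not overlap (log2 fold change -0.21, 95% interval -0.43 to 0.01, edgeR adjusted p = 0.0926). N2 L4 replicate 1 was the lower N2 library for all but fat-5. Without it all 7 members were called, fat-5 higher and the other 6 lower, among them fat-2 at -0.29 (adjusted p = 9.47e-04), fat-3 at -0.46 (adjusted p = 2.59e-05) and fat-4 at -0.19 (adjusted p = 0.0186).

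Markers of cell types and tissues also differed between the larvae. The 7 oocyte markers summed to 1508 to 1618 CPM in hira-1(-) L4 larvae and 286.4 to 357.1 CPM in N2 L4 larvae, all 7 higher, while in adults no library of either genotype summed below 7642 CPM. The 11 intestine markers summed to 5718 to 5862 CPM in hira-1(-) L4 larvae and 6678 to 7309 CPM in N2 L4 larvae, 2 higher and 8 lower. The 8 hypodermis markers summed to 2037 to 2111 CPM in hira-1(-) L4 larvae and 4314 to 4319 CPM in N2 L4 larvae, 2 higher and 4 lower. Germ line had 5 higher and none lower of 6, sperm 2 higher and 2 lower of 6, body wall muscle none higher and 5 lower of 6, and neurons 1 higher and 2 lower of 6. Beside these counts, 35.5% of all genes tested were higher and 22.6% lower in hira-1(-) L4 larvae. No marker of these lists was at 0, and the part of the markers in the desaturase values was not tested.

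In the main fit the genotype difference itself differed between the stages for 6 of the 7 genes. The adult difference minus the L4 difference was negative for all 6 and positive past the threshold for none, beside 29.7% of all genes tested called negative and 20.7% called positive. It was widest for fat-5, whose sign turned between the stages (-1.74, SE 0.25, edgeR adjusted p = 9.21e-05), and for fat-7, which was lower at both (-1.58, SE 0.25, edgeR adjusted p = 8.06e-04). It was -0.50 for fat-6 (adjusted p = 0.00133), -0.36 for fat-1 (adjusted p = 0.00590), -0.31 for fat-2 (adjusted p = 0.0134) and -0.24 for fat-4 (adjusted p = 0.0454). For fat-3 it was 0.22 with a 95% interval of -0.09 to 0.54 (adjusted p = 0.203), and it was called positive without N2 L4 replicate 1 (0.44, adjusted p = 8.32e-04). The calls of fat-5 and fat-7 held under every alternative run, though for fat-7 the summed setting tested its sum with fat-6. With library totals fat-2 and fat-4 were lost (adjusted p = 0.0575 and 0.174), and the blocked fit lost fat-4 (adjusted p = 0.0524). A filter of at least 1 CPM in 3 libraries also lost fat-2 and fat-4 (edgeR adjusted p = 0.0931 and 0.261). Fits lacking N2 adult replicate 1 or N2 L4 replicate 1 lost fat-1, fat-2 and fat-4. The fat-4 call was lost too without either hira-1(-) adult or either hira-1(-) L4 library. The fat-2 call was lost without hira-1(-) adult replicate 2 or hira-1(-) L4 replicate 1.

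Each genotype's adults were also compared with its own L4 larvae. In N2, 6 of the 7 were higher in adults and none lower, beside 38.2% of all genes called higher and 43.4% called lower (member median 0.60, median of all genes -0.15). In hira-1(-), 4 were higher in adults and 1 was lower, beside 36.0% of all genes called higher and 38.4% called lower (member median 0.24, median of all genes -0.08). The adult groups serve in these and in the genotype comparisons, so the values are not independent of those above.

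In N2 the steepest stage differences were those of fat-7 (53.7 ± 5.09 CPM in adults and 14.5 ± 1.75 CPM at L4, log2 fold change 1.89, edgeR adjusted p = 4.73e-06) and fat-5 (10.6 ± 0.425 CPM in adults and 3.04 ± 0.136 CPM at L4, log2 fold change 1.80, edgeR adjusted p = 8.61e-07; SD, n = 2 each). In hira-1(-) neither passed. For fat-7 the means were 11.7 ± 0.265 CPM in adults and 9.47 ± 2.83 CPM at L4 (log2 fold change 0.31, 95% interval -0.12 to 0.74, edgeR adjusted p = 0.164). Leaving out hira-1(-) L4 replicate 1 gave 0.65 (adjusted p = 0.00237). For fat-5 they were 7.81 ± 0.334 CPM in adults and 7.49 ± 2.18 CPM at L4 (log2 fold change 0.06, 95% interval -0.30 to 0.43, edgeR adjusted p = 0.750).

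The other stearoyl-CoA desaturase fat-6 had 223 ± 1.40 CPM in adults and 262 ± 12.4 CPM at L4 in hira-1(-), and was lower in adults (log2 fold change -0.23, edgeR adjusted p = 0.0113). In N2 it had 410 ± 22.5 CPM in adults and 340.4 ± 37.1 CPM at L4, and was higher in adults (log2 fold change 0.27, edgeR adjusted p = 0.00368; SD, n = 2 each). The N2 call was lost with library totals (log2 fold change 0.10), without N2 adult replicate 1 (0.15) and lacking N2 L4 replicate 1 (0.06). The hira-1(-) call was lost without hira-1(-) adult replicate 1 (adjusted p = 0.0621) or hira-1(-) L4 replicate 1 (adjusted p = 0.0976). The polyunsaturated fatty acid desaturases fat-1, fat-2 and fat-4 were higher in adults in both genotypes, by 0.24, 0.44 and 0.23 in hira-1(-) and by 0.60, 0.74 and 0.47 in N2 on the log2 scale. In hira-1(-) the calls of fat-1 and fat-4 were lost with library totals (adjusted p = 0.0609 and 0.0796) and without hira-1(-) adult replicate 1 (adjusted p = 0.0640 and 0.0590). For fat-3 the values were 0.45 in hira-1(-) (adjusted p = 0.00243) and 0.22 in N2 (adjusted p = 0.0579).

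**Figure D3:**
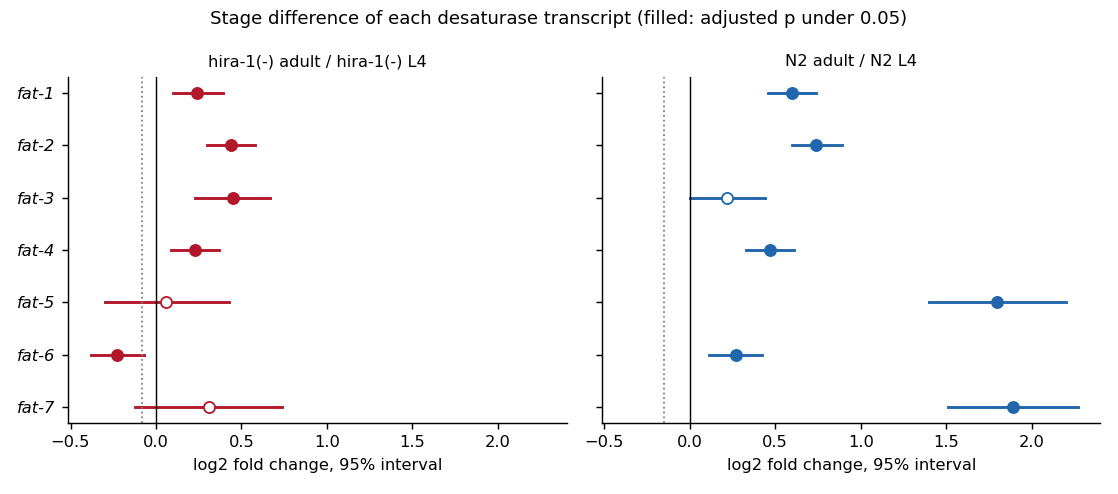
Log2 fold change of adults over L4 larvae for each desaturase transcript in hira-1(-) (left) and N2 (right), with 95% intervals, filled where the edgeR adjusted p is under 0.05 and with the median of all genes as a dotted line. In N2 fat-7 and fat-5 stand at 1.89 and 1.80, and in hira-1(-) at 0.31 and 0.06; fat-6 lies at -0.23 in hira-1(-) and at 0.27 in N2, the second of these lost with library totals.

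The make-up of the family's transcripts differed between the groups. Of the summed FPKM of all 7, the desaturases of saturated chains held 17.6% and 18.7% in hira-1(-) adults, 24.9% and 24.4% in N2 adults, 25.0% and 23.8% in hira-1(-) L4 larvae, and 27.5% and 27.9% in N2 L4 larvae. Hira-1(-) adults were thus the group with the smallest share, and no group's libraries overlapped theirs. The ratio of fat-6 to fat-7 was 19.7 and 19.3 in hira-1(-) adults, 7.62 and 8.03 in N2 adults, 24.1 and 34.6 in hira-1(-) L4 larvae, and 24.3 and 23.9 in N2 L4 larvae. N2 adults stood apart from the other 3 groups in having relatively more fat-7. The ratio of fat-2 to fat-6 was 2.44 and 2.31 in hira-1(-) adults, 1.66 and 1.72 in N2 adults, 1.47 and 1.54 in hira-1(-) L4 larvae, and 1.22 and 1.20 in N2 L4 larvae. This ratio within a library does not depend on how libraries are scaled, and shows unequal change only. The 7 transcripts together were 1277 and 1192 FPKM in hira-1(-) adults, 1584 and 1490 FPKM in N2 adults, 1135 and 1102 FPKM in hira-1(-) L4 larvae, and 1081 and 1256 FPKM in N2 L4 larvae.

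**Figure D4:**
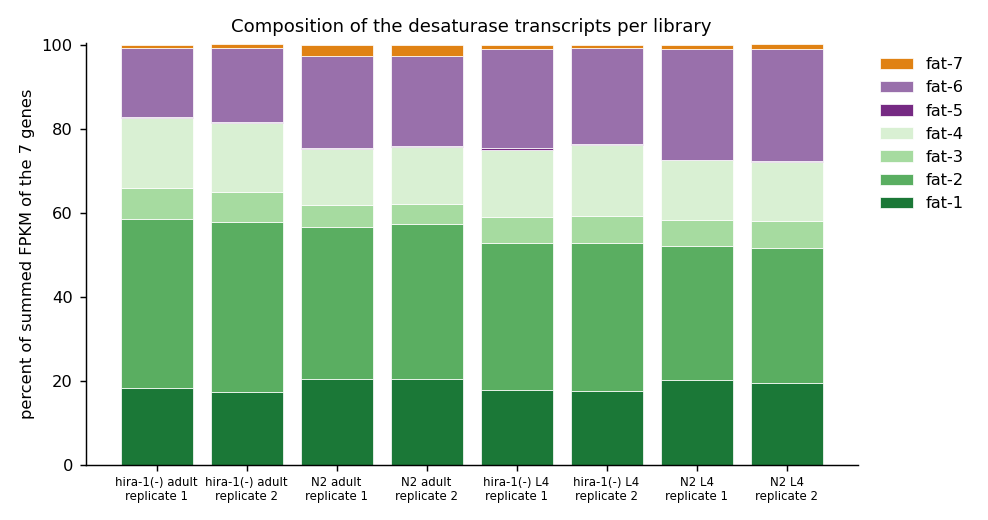
Percent of the summed FPKM of the 7 desaturase transcripts held by each gene, 1 stacked bar per library, with the desaturases of saturated chains (fat-5, fat-6 and fat-7) at the top. They hold 17.6% and 18.7% in hira-1(-) adults, 24.9% and 24.4% in N2 adults, 25.0% and 23.8% in hira-1(-) L4 larvae, and 27.5% and 27.9% in N2 L4 larvae.

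The genes whose profile over the 8 libraries was most like that of each desaturase were found among 9371 named genes by the distance between centred log2 CPM values. The nearest to fat-1 were spcs-2, elo-1 and hpo-8, at distances of 0.204, 0.234 and 0.262 (Pearson r 0.982, 0.976 and 0.973), of which elo-1 encodes a polyunsaturated fatty acid elongase and hpo-8 a dehydratase of the elongation cycle. The nearest to fat-6 were ndua-13, ent-7 and acl-5 (distances 0.239, 0.260 and 0.266), of which acl-5 encodes an acyltransferase of glycerolipid synthesis. The nearest to fat-7 lay farther off, namely gcsh-1, comt-4 and clec-261 (distances 0.711, 0.776 and 0.930). For fat-5 they were kin-16, csa-1 and dhs-19 (distances 0.480, 0.604 and 0.638). For fat-2 they were natb-1, snr-7 and pas-3 (distances 0.0886, 0.119 and 0.127), for fat-3 nstp-10, nstp-2 and tag-131 (0.201, 0.222 and 0.244), and for fat-4 egli-1, ced-10 and mon-2 (0.112, 0.124 and 0.139). No desaturase was among the 3 nearest genes of another. Only the 2 libraries of a group share both stage and genotype, so these likenesses describe 4 groups of 2 libraries.

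The other genes of fatty acid and lipid synthesis were described from 6 lists holding 52 genes, of which 50 were tested. In adults 10 of the 50 were higher and 22 lower in hira-1(-), beside 28.6% and 26.5% of all genes tested, with a median of -0.14 beside 0.03. At L4 13 were higher and 23 lower, beside 35.5% and 22.6% of all genes tested, with a median of -0.17 beside 0.10. The fatty acid elongation list, whose enzymes lengthen the chains that desaturases act on, had 1 gene higher and 10 lower of 12 at each stage (median -0.53 in adults and -0.35 at L4). With library totals 7 of the 12 passed in adults and 6 at L4, in either direction. Its 3 genes of smallest adjusted p in adults were let-767, which encodes a ketoacyl reductase, at 139 ± 1.75 CPM in hira-1(-) adults and 370 ± 6.47 CPM in N2 adults (log2 fold change -1.41, SE 0.07, edgeR adjusted p = 2.49e-09), and the branched-chain elongases elo-6 (-1.19, adjusted p = 1.23e-08) and elo-5 (-1.20, adjusted p = 2.45e-08). At L4 they were let-767 (-0.90, adjusted p = 1.10e-07), elo-6 (-0.56, adjusted p = 8.62e-06) and elo-9 (-0.79, adjusted p = 1.38e-05).

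The 3 genes listed for electron transfer to desaturases included hpo-19, which encodes a cytochrome b5 reductase, and the cytochrome b5 gene cytb-5.1. In adults 2 of the 3 were lower and none higher, beside 26.5% and 28.6% of all genes tested. At L4 1 was lower and none higher, beside 22.6% and 35.5% of all genes tested. The reductase gene had 159 ± 1.61 CPM in hira-1(-) adults and 271 ± 0.981 CPM in N2 adults (log2 fold change -0.77, edgeR adjusted p = 2.78e-08), and cytb-5.1 had 43.4 ± 1.74 CPM in hira-1(-) adults and 63.1 ± 2.66 CPM in N2 adults (log2 fold change -0.54, edgeR adjusted p = 4.28e-04; SD, n = 2 each). At L4 hpo-19 was at -0.50 (adjusted p = 1.57e-06) and cytb-5.1 at -0.20 (adjusted p = 0.0673).

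Of 4 genes of fatty acid synthesis, none was higher and 1 was lower in adults, the ATP citrate lyase gene acly-1 (log2 fold change -0.69, edgeR adjusted p = 1.02e-05). The lower count is near the 26.5% of all genes tested called lower, beside 28.6% called higher, and is read as no result for the list. At L4 2 were higher and none lower, beside 35.5% and 22.6% of all genes tested. They were the other ATP citrate lyase gene acly-2, at 130.2 ± 1.69 CPM in hira-1(-) L4 larvae and 62.2 ± 3.18 CPM in N2 L4 larvae (log2 fold change 1.07, edgeR adjusted p = 4.10e-09), and the fatty acid synthase gene fasn-1 (0.57, adjusted p = 5.53e-05).

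The 11 regulator genes were listed for known roles in desaturase transcription or membrane fluidity in this worm. In adults 4 were higher and 2 lower (median 0.05), and at L4 6 were higher and 2 lower (median 0.17). The L4 shares of all genes tested were 35.5% higher and 22.6% lower (median 0.10). The adult counts are near the shares of all genes tested, 28.6% higher and 26.5% lower, and so are read as no result for the list. The sterol-response factor gene sbp-1, a known activator of fat-5, fat-6 and fat-7, had 55.8 ± 5.84 CPM in hira-1(-) adults and 35.1 ± 0.705 CPM in N2 adults (log2 fold change 0.67, SE 0.08, edgeR adjusted p = 1.37e-05; SD, n = 2 each), and was higher at L4 as well (0.57, adjusted p = 4.09e-05). Its Mediator partner mdt-15 was higher in adults (0.43, adjusted p = 3.51e-05). The nuclear hormone receptor gene nhr-13 was lower in adults (-0.75, adjusted p = 1.19e-04). The receptors nhr-49 and nhr-80, known in this worm to act on fat-7 and fat-6, did not pass in adults (log2 fold changes 0.05 and 0.03, adjusted p = 0.398 and 0.833). At L4 nhr-66 was higher (0.55, adjusted p = 9.63e-06) and acdh-11, an acyl-CoA dehydrogenase gene whose loss is known to raise fat-7, was lower (-0.29, adjusted p = 1.86e-04).

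Among genes of phospholipid synthesis 2 were higher and 5 lower of 11 tested at each stage (median -0.15 in adults and -0.13 at L4). Beside these, 28.6% of all genes tested were higher and 26.5% lower in adults, and 35.5% and 22.6% at L4. The S-adenosylmethionine synthetase gene sams-1, which feeds phosphatidylcholine synthesis, had 242 ± 10.2 CPM in hira-1(-) adults and 654 ± 40.6 CPM in N2 adults (log2 fold change -1.43, SE 0.06, edgeR adjusted p = 7.19e-10; SD, n = 2 each), and was at -0.77 at L4 (adjusted p = 1.62e-07). The phosphoethanolamine methyltransferase gene pmt-2 was at -1.10 in adults (adjusted p = 1.60e-08) and the phosphocholine-pathway gene pcyt-1 at -0.44 (adjusted p = 5.05e-05). At L4 the phosphotransferase gene cept-2 was at 0.43 (adjusted p = 1.39e-05) and the acyltransferase gene mboa-7 at -0.78 (adjusted p = 1.76e-05). Among genes of triglyceride storage and breakdown 3 were higher and 2 lower of 9 tested in adults (median 0.01), and 2 higher and 5 lower at L4 (median -0.30). The adult counts and median are again near those of all genes tested (28.6% higher, 26.5% lower, median 0.03). At L4 all genes tested had 35.5% higher, 22.6% lower and a median of 0.10. The lysosomal lipase genes diverged in adults, lipl-1 at 1.68 (adjusted p = 2.00e-07) and lipl-5 at -0.86 (adjusted p = 3.23e-08), while the lipase gene atgl-1 was higher at both stages (0.50 in adults and 0.59 at L4, adjusted p = 5.11e-06 and 1.56e-06). At L4 the perilipin gene plin-1 was at 0.77 (adjusted p = 2.63e-07) and lipl-5 at -0.63 (adjusted p = 4.15e-07).

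**Figure D5:**
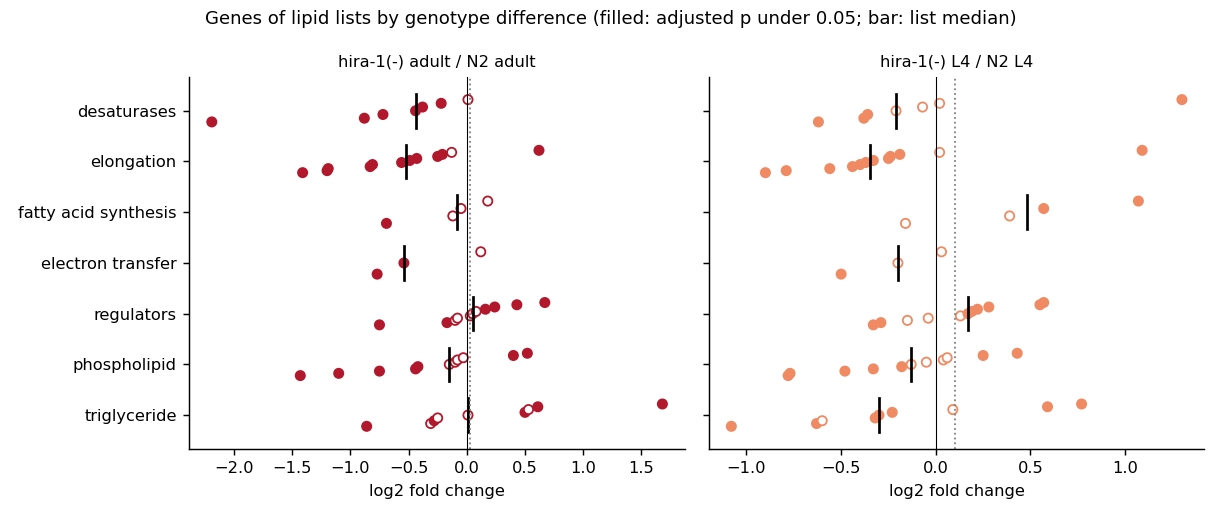
Log2 fold change of hira-1(-) over N2 for each tested gene of the desaturases and of 6 lipid lists, in adults (left) and at L4 (right), filled where the edgeR adjusted p is under 0.05, with a bar at each list's median and the median of all genes as a dotted line. The desaturase median is -0.44 in adults and -0.21 at L4, and the elongation median is -0.53 in adults and -0.35 at L4.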

How the data were processed

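Poly(A)-selected RNA of hira-1(-) and N2 animals was read as paired-end libraries, per the labels' protocols. From these the authors deposited a table of estimated counts per gene and a table of log2(FPKM + 1) values. The submitters' processing notes name the ce10 build, SAMtools 0.1.19, RSEM 1.2.15 and Bowtie 1.0.1. Of 18 columns, 8 match sample labels (1 with a digit in place of a letter), and the other 10 were not used. Names of 44080 of 45461 rows came from WBcel235, a different build, so no coordinates are given, and sequences of the members were not analysed here.

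Estimated counts were rounded, and the test was that of edgeR 4.0.16 (R 4.3.3): trimmed-mean scaling, the expression filter (minimum count 10, total 15), a robust quasi-likelihood fit of 4 group means on 8 libraries (4 residual degrees of freedom), and Benjamini-Hochberg adjustment over 16770 genes at a threshold of 0.05. The common biological coefficient of variation was 6.26%. Replicate libraries were farther apart than sampling of reads gives, with chi-square values of 5.44 to 17.9 for each degree of freedom. Estimated counts of 6 members were rarely whole (0 or 1 of 8 libraries), which shows that the counting program divided reads, and fat-5 was whole in 7 of 8. The labels do not say whether a replicate number marks a shared culture or day, so the main fit did not pair by it.

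Alternatives were RLE scaling, library totals, other expression filters, DESeq2 1.42.0, a 1.5-fold minimum, limma 3.58.1 on the deposited log2 values and on log2(FPKM + 0.1), only the groups compared, a replicate block, no ribosomal RNA genes (0.377% to 2.94% of counts), fat-6 and fat-7 summed, and each library left out. The fit was also run on counts simulated from its own estimates of spread, which cannot test whether the model suits these libraries. Named genes are the 7 members, hira-1, the 3 of smallest adjusted p per lipid list and genotype, and the 3 most alike per member; twk-42, nhr-49 and nhr-80 were added after their values were seen. The members and lists were chosen with earlier results of these data known.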

Additional observations from a re-analysis of the deposited data

Results flagged for a closer look

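The genotype difference (log2, hira-1(-) over N2) was more negative in adults than at L4 for 6 of the 7 desaturases. Beside this, 29.7% of all genes tested were called negative and 20.7% positive. The test was of that difference itself, in edgeR's quasi-likelihood fit with Benjamini-Hochberg adjustment. The values were -0.36 for fat-1 (adjusted p = 0.00590), -0.31 for fat-2 (adjusted p = 0.0134), -0.24 for fat-4 (adjusted p = 0.0454), -1.74 for fat-5 (adjusted p = 9.21e-05), -0.50 for fat-6 (adjusted p = 0.00133) and -1.58 for fat-7 (adjusted p = 8.06e-04). Library totals and a CPM filter lost the calls of fat-2 and fat-4, and limma at either pseudocount lost those of fat-1, fat-2 and fat-4. So did leaving out N2 adult replicate 1 or N2 L4 replicate 1. The fat-4 call was also lost without either hira-1(-) adult or either hira-1(-) L4 library. By the same edgeR test of the difference, oocyte markers had 7 of 7 negative (median -2.11), germ line 5 of 6 negative (-0.50) and sperm 3 negative and 1 positive of 6 (-0.41). In the other direction, intestine markers had 6 positive and 1 negative of 11 (median 0.40), hypodermis 6 positive and 2 negative of 8 (2.54), body wall muscle 5 of 6 positive (1.06) and neurons 3 of 6 positive (0.27). Their part in the desaturase values was not tested.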

How the results depend on the processing

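Of 693 recomputed member values, 586 kept their direction and side of the threshold. With the sign kept, 72 lost the call and 14 gained it, and 21 changed sign, whether called or not. The sum of fat-6 and fat-7 is entered under both genes. In adults the calls of fat-1, fat-6 and fat-7 held in all 20 alternatives, though for fat-7 the summed setting tested its sum with fat-6. Called members fell to 3 in adults, 1 at L4, 2 for the difference between stages, 0 for hira-1(-) stages and 3 for N2 stages with a 1.5-fold minimum; to 3 in adults, for the difference and for hira-1(-) stages with limma at either pseudocount; and to 3 for hira-1(-) stages with library totals. At L4 they came to 6 with a CPM filter and to 5 with RLE scaling or only the groups compared. With 1 library left out they ranged over 4 to 6 in adults, 3 to 7 at L4, 3 to 6 for the difference, 2 to 5 for hira-1(-) stages (2 without adult replicate 1) and 5 to 7 for N2 stages, and pathway genes over 28 to 34 in adults and 28 to 39 at L4. Signs changed mostly for values near 0. A member farther from 0 whose sign changed was fat-3 in N2 stages (main value 0.22). For fat-7 in hira-1(-) stages (main value 0.31) the sign changed just in the summed setting, which tested its sum with fat-6. With 1 library left out that fat-7 value was 0.03 to 0.65. Adult fat-3 was -0.05 with RLE scaling and DESeq2 and -0.08 to 0.08 with 1 library left out. L4 fat-2 was 0.06 with library totals and 0.07 with limma, and L4 fat-4 was -0.02 without a filter, -0.08 with a CPM filter, -0.09 with only the groups compared and -0.19 to 0.03 with 1 library left out. For hira-1(-) stages fat-5 was -0.03 with library totals, -0.01 and -0.00 with limma and -0.21 to 0.39 with 1 library left out, and the fat-6 and fat-7 sum was -0.21. For N2 stages fat-3 was -0.00 to 0.32 with 1 library left out. Adult acly-2 was 0.09 with library totals and limma, and adult pod-2 -0.06 to 0.38 with 1 library left out. L4 cytb-5.2 was -0.00 without a filter, -0.07 with a CPM filter and with only the groups compared, and -0.15 to 0.09 with 1 library left out. Library totals moved the median of all genes from 0.03 to 0.24 in adults, from 0.10 to 0.24 at L4 and from -0.15 to -0.32 for N2 stages. Deviations of replicate 1 from its group mean correlated at -0.004 to 0.050 over 6 pairs of groups. With 2 libraries in each group, this does not settle whether replicates of the same number shared a culture or day. The replicate block left 6 members called in adults and 4 at L4 and 5 for the difference. The difference between stages cannot be fitted with only the groups compared. The causes were not tested. The lowest depth is that of fat-5, with 80 to 287 counts a library.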
